A study of Mus musculus with 6 samples.

Results

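The 10 genes described here, Adipoq, Lep, Retn, Cfd, Plin1, Cidec, Lpl, Fabp4, Pparg and Car3, are markers of adipocytes of the general and white type. They were taken by gene symbol from a table of 55426 genes, in which each symbol matched 1 row. RNA of abdominal aortas was sequenced from male Prdm16SMKO mice (Prdm16 flox/flox with Myh11-CreERT2; 3 libraries) and male control mice (Myh11-CreERT2; 3 libraries), all of the C57BL/6J strain. Tamoxifen was given by gavage at 75 mg/kg/day for 5 days at an age of 8 to 10 weeks, and the mice entered experiments 2 weeks later. The time at which RNA was taken and whether each library is a separate mouse are not given in the sources used here, and no aneurysm was induced. The Cre cassette lies on the Y chromosome and is driven by the smooth muscle gene Myh11, so the deletion is directed at vascular smooth muscle cells (VSMCs). Whether any adipocytes also lost Prdm16 is not given in the sources used here. The values are TPM, a transcript abundance corrected for length and scaled to 1 total in every library, so that levels of different genes can be compared. How much perivascular fat was left on the vessels is not given in the sources used here.

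White adipocytes store triglyceride in a single large lipid droplet and secrete hormones, the adipokines. PPARγ, the nuclear receptor encoded by Pparg, and the transcription factor C/EBPα drive the adipocyte program and activate most of the other genes named here. The mouse abdominal aorta is wrapped in perivascular adipose tissue of a largely white type, while the fat around the thoracic aorta resembles brown fat, and PRDM16 itself is known as a regulator of brown and beige fat.

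The libraries had 20332 to 22100 genes above 0 TPM. The share of mitochondrially encoded transcripts was between 15.8% and 27.4% and that of 45S ribosomal RNA between 15.5% and 31.4%, and for both shares the groups overlapped. Depth per library is unknown, because TPM keeps no record of the reads. Here and throughout, sets of 3 values stand in the order of replicates 1, 2 and 3. The targeted gene Prdm16 measured 33.4, 36.8 and 30.8 TPM in the controls and 20.8, 27.7 and 14.8 TPM in the knockouts, with no overlap (log2 difference −0.70 ± 0.23 SE, limma, adjusted p = 0.376), so transcripts of the gene were still present in whole aortas of the knockout. The VSMC marker Acta2 ranged from 5256 TPM in Prdm16SMKO replicate 3 to 13019.9 TPM in control replicate 2.

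The adipocyte genes were expressed in all 6 libraries and varied widely between libraries, with the highest library 4.38- to 29.3-fold above the lowest. The ratio of group means, knockout over control, was 1.53 to 3.11. Lep, at 0.10 TPM in its lowest library, set both upper ends, and the next highest values, both of Plin1, were 10.25-fold and 2.405. Without Prdm16SMKO replicate 3 the ratio of means ran from 0.684 (Fabp4) to 2.306 (Lep), with 1.437 (Retn) the next highest. Prdm16SMKO replicate 3 had the highest value of all 10 genes, and control replicate 1 was the next highest for 8 of them. Control replicate 3 was the lowest for 8 genes. Summed over the 10 genes, the level was 2094, 1244 and 956 TPM in the controls and 1353, 1337 and 5241 TPM in the knockouts. The sum was thus 0.0956% to 0.209% of all TPM in 5 libraries and 0.524% in Prdm16SMKO replicate 3. In a bulk sample, fewer adipocytes and less RNA per adipocyte cannot be told apart.

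**Figure D1:**
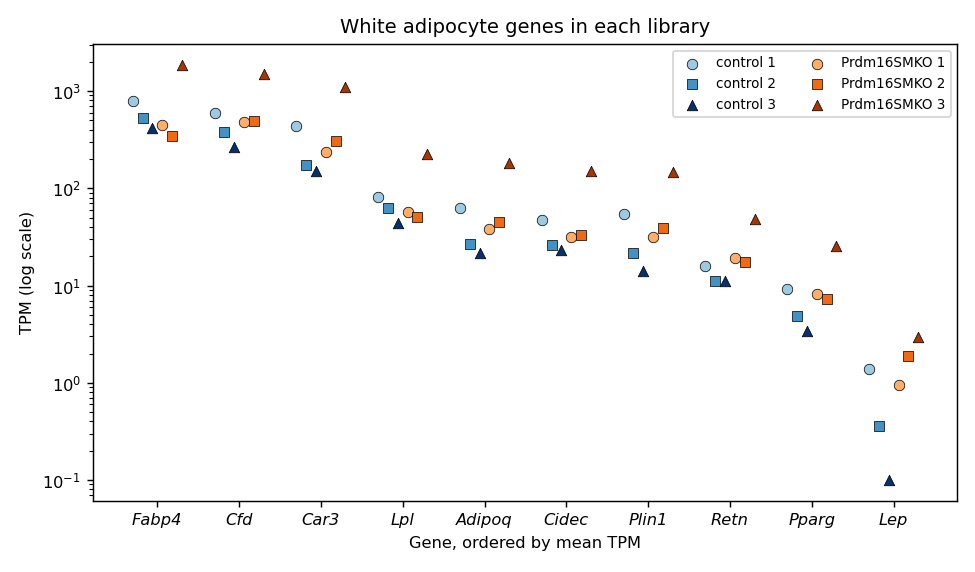
TPM (log axis) of the 10 white adipocyte genes in the 3 control libraries (blue) and the 3 Prdm16SMKO libraries (orange), with 1 point per library and genes ordered by mean TPM. The triangle of Prdm16SMKO replicate 3 is the top point for every gene, from 1864 TPM for Fabp4 to 2.93 TPM for Lep, while the other 5 libraries of both groups intermingle for all genes except Retn.

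Between genotypes, all 10 genes had higher fitted values in the Prdm16SMKO group, by log2 differences of 0.24 to 1.21, and none passed the test. Log2(TPM + 0.5) was fitted with limma over 15775 genes whose mean reached 0.5 TPM, a minimum that all 10 genes passed in each group's mean as well. Of all genes tested 0.355% were called at a Benjamini-Hochberg adjusted p under 0.05, and the count among the 10 was 0, with the lowest adjusted p, 0.457 (limma), in Retn. At an unadjusted p under 0.05 there were 2, Retn and Lep, against 8.74% of all genes tested. In 1 gene, Retn, the groups did not overlap, against 12.8% of all genes tested. The median log2 difference of the 10 genes was 0.96, where that of all genes tested was 0.02 and 54.2% of all genes were higher in the knockout. The 10 genes varied together from library to library, so their 10 signs are not independent of each other.

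Without Prdm16SMKO replicate 3 that median was 0.31, with 8 of the 10 genes higher, and with limma's array weights, which gave control replicate 1 a weight of 10.1 and the other libraries weights of 0.414 to 0.954, it was 0.10, with 7 genes higher. Leaving out control replicate 1, the control richest in these transcripts, gave a median of 1.27, and 7 genes then had an unadjusted p under 0.05, with none called (lowest adjusted p = 0.393, Lep, limma). The same count of 7 was found without Prdm16SMKO replicate 1 (lowest adjusted p = 0.333, Retn, limma), again with none called. That count was 0 without control replicate 2, 0 without control replicate 3, 2 without Prdm16SMKO replicate 2 and 1 without Prdm16SMKO replicate 3. With array weights it was 0. The share of all genes at that threshold was not counted in these fits, and the 10 genes varied together. These counts therefore cannot be read as support for a difference between the genotypes. Prdm16SMKO replicate 3 also had the lowest Prdm16 level, 14.8 TPM, and a VSMC marker sum of 11450 TPM, where the other 5 libraries had 13540 to 25200 TPM. The part of these values in the differences was not tested.

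**Figure D2:**
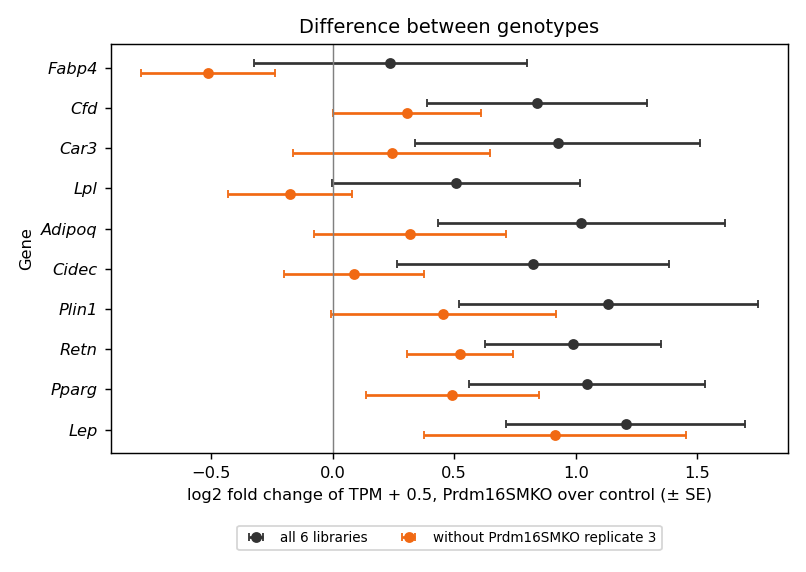
Log2 fold change of TPM + 0.5 (Prdm16SMKO over control, limma) of each gene, with bars of 1 standard error, from all 6 libraries (black) and without Prdm16SMKO replicate 3 (orange). With all libraries the 10 points lie between 0.24 (Fabp4) and 1.21 (Lep), and without that library Fabp4 and Lpl lie below 0.

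The RefSeq promoter table (GRCm38.p6) held 7 of the 10 genes with 10 promoter windows, each of 250 bases before and 50 bases after an annotated start. The windows of the adipokine genes Lep and Adipoq are shown as examples that hold matches to motifs of adipocyte regulators or of core promoters. Whether such matches have a part in the levels of the genes was not tested. The Lep window, on the plus strand at chr6:29059971-29060270, is printed with the C/EBP palindrome TTGCGCAA in capitals, and the Adipoq window, on the plus strand at chr16:23146286-23146585, with the matches to CCAAT or its reverse complement in capitals.
Lep: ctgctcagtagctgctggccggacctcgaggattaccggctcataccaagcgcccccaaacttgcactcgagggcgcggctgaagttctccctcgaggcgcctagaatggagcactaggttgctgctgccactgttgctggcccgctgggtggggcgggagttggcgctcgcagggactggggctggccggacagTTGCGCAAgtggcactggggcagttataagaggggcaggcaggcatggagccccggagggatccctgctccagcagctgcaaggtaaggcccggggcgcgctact
Adipoq: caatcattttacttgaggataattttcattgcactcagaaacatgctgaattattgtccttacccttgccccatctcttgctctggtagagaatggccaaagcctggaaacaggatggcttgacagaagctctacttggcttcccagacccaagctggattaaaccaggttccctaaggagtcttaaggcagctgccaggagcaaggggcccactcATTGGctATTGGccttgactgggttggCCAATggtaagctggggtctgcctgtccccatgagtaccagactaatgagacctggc

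Both strands were searched for 5 motifs. TTGCGCAA was found in the Lep window alone among the member windows, starting 55 bases before the annotated start, and in 0.183% of all 32851 windows. CCAAT was found in 3 of the 10 member windows, of Adipoq and Pparg (37.4% of all windows). AGGTCA, the hexamer bound by nuclear receptors, was in 2 of the 10, both of Pparg (16.3% of all windows). TATAAA was in 1 of the 10, of Pparg (13.6% of all windows). A direct repeat of AGGTCA with 1 base between the copies, the arrangement PPARγ binds with its partner RXR, was in none of the member windows and in 0.0396% of all windows. AGGTCA is part of the direct repeat, and the other motifs share no bases. The windows of Cidec, Plin1, Retn and Cfd held no match.

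Among the adipokines, Adipoq encodes adiponectin, the hormone most specific to adipocytes. It measured 63.3, 27.0 and 21.5 TPM in the controls and 38.5, 44.96 and 181.8 TPM in the knockouts. The groups overlapped, and the highest library was 8.45-fold above the lowest. The means were 37.2 ± 22.7 TPM in control and 88.4 ± 80.9 TPM in Prdm16SMKO mice (SD, n = 3 each), a log2 difference of 1.02 ± 0.59 (SE, limma, adjusted p = 0.739). Without Prdm16SMKO replicate 3 the mean of the knockout was 41.7 TPM. Adipoq, like the other members a protein-coding gene, lies on chromosome 16 of GRCm38 (GENCODE M21) from 23146536 to 23158028.

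Lep, which encodes leptin, the adipokine that reports fat stores to the brain, was the least abundant of the 10 genes. Control replicates 1, 2 and 3 had 1.40, 0.36 and 0.10 TPM and Prdm16SMKO replicates 1, 2 and 3 had 0.96, 1.90 and 2.93 TPM. Of the knockout libraries 2 lay above every control and 1 lay below control replicate 1. The fitted log2 difference was 1.21 ± 0.49 (SE, limma, unadjusted p = 0.0374, adjusted p = 0.531). The scale of log2(TPM + 0.5) understates fold changes at such low levels. Lep (chromosome 6, 29060220 to 29073877) and Fabp4 had the lowest correlation of any pair of the 10 genes, 0.57.

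Retn encodes resistin, which in mice is secreted by adipocytes. It measured 15.8, 11.1 and 11.2 TPM in the controls and 19.1, 17.4 and 48.7 TPM in the knockouts. Every knockout library lay above every control. The means were 12.7 ± 2.66 and 28.4 ± 17.6 TPM (SD, n = 3 each), with a log2 difference of 0.99 ± 0.36 (SE, limma, unadjusted p = 0.0241, Benjamini-Hochberg adjusted p = 0.457). An exact two-sided permutation test gave p = 0.1, the smallest that 3 libraries against 3 allow. Retn is on chromosome 8 from 3655770 to 3660110.

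Cfd encodes adipsin, or complement factor D, a serine protease of the alternative complement pathway that adipocytes secrete in large amounts. It measured 601, 382 and 268 TPM in the controls and 483, 493 and 1488 TPM in the knockouts. Prdm16SMKO replicates 1 and 2 lay between control replicates 1 and 2. The fitted log2 difference was 0.84 ± 0.45 (SE, limma, adjusted p = 0.704). Cfd (chromosome 10, 79890853 to 79892655) exceeded Car3 in all 6 libraries.

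Of the lipid droplet proteins, perilipin 1, encoded by Plin1, coats the droplet and gates lipolysis. Plin1 measured 54.3, 21.4 and 14.2 TPM in the controls and 31.7, 39.1 and 145 TPM in the knockouts. Its SD on log2(TPM + 0.5) over the 6 libraries was 1.15, the largest of the 10 genes on that scale, while in TPM the fold from lowest to highest library was largest for Lep. Its log2 difference was 1.13 ± 0.62 (SE, limma, adjusted p = 0.710). Cidec, whose product fuses lipid droplets, measured 46.7, 26.0 and 23.4 TPM in the controls and 31.9, 33.0 and 152 TPM in the knockouts. Its log2 difference was 0.82 ± 0.56 (SE, limma, adjusted p = 0.816). Without Prdm16SMKO replicate 3 its means were 32.1 TPM in control and 32.5 TPM in Prdm16SMKO mice. Plin1 is on chromosome 7 (79720218 to 79732903) and Cidec on chromosome 6 (113424634 to 113435760).

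Lpl and Fabp4 serve fatty acid uptake. Lipoprotein lipase, encoded by Lpl, releases fatty acids from circulating triglyceride and is also made by muscle and macrophages, and FABP4 carries fatty acids in the cytosol of adipocytes and also of capillary endothelial cells and macrophages. Fabp4, the most abundant member, measured 785, 533 and 418 TPM in the controls and 449.6, 343 and 1864 TPM in the knockouts. Lpl was at 80.9, 62.7 and 44.4 TPM in the controls and at 56.6, 51.2 and 224 TPM in the knockouts, in the same order. For both genes 2 of the 3 knockout libraries lay within or below the range of the controls. Their log2 differences were 0.24 ± 0.56 and 0.51 ± 0.51 (SE), with limma adjusted p-values of 0.973 and 0.903. Without Prdm16SMKO replicate 3 the differences turned negative, to −0.51 for Fabp4 and −0.18 for Lpl (limma, adjusted p = 0.755 and 0.995). Fabp4 is on chromosome 3 (10204088 to 10208576) and Lpl on chromosome 8 (68880491 to 68907448).

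Pparg measured 9.22, 4.81 and 3.41 TPM in the controls and 8.28, 7.26 and 25.7 TPM in the knockouts. Control replicate 1 exceeded 2 of the 3 knockout libraries. Its fitted log2 difference was 1.05 ± 0.48 (SE, limma, adjusted p = 0.611). Pparg spans 129449 bp on chromosome 6 (115360951 to 115490399), and its 7 annotated transcripts share 1 TPM value. Car3 encodes carbonic anhydrase 3, an enzyme abundant in adipocytes and in slow skeletal muscle. Car3 (chromosome 3, 14863512 to 14872523) measured 436, 175 and 152 TPM in the controls and 234, 308 and 1108 TPM in the knockouts, with a log2 difference of 0.92 ± 0.58 (SE, limma, adjusted p = 0.781).

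By mean TPM the genes ranked in the order Fabp4 (732), Cfd (619), Car3 (402), Lpl (86.7), Adipoq (62.8), Cidec (52.2), Plin1 (51.0), Retn (20.6), Pparg (9.77) and Lep (1.28). The steps from Cfd to Car3, Car3 to Lpl, Lpl to Adipoq, Plin1 to Retn, Retn to Pparg and Pparg to Lep had the same direction in all 6 libraries. Fabp4 exceeded Cfd in 4 of 6 libraries, Cidec exceeded Plin1 in 4 and Adipoq exceeded Cidec in 5, so these neighbours did not differ beyond their spread.

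The genes followed each other closely across libraries. Over the 45 pairs of genes, the Pearson correlation of log2(TPM + 0.5) over the 6 libraries ranged from 0.57 to 0.997 with a median of 0.937, and it was at least 0.9 in 30 pairs. These are descriptions over 6 libraries that share their scaling, and the high library weighs on all of them. Without Prdm16SMKO replicate 3 the median over 5 libraries was 0.845 and the range −0.103 to 0.994. Adipoq, Plin1, Cfd, Cidec, Car3 and Pparg still correlated with the mean of the other 9 genes at 0.951 to 0.995, Lep at 0.859, Retn at 0.714, Lpl at 0.713 and Fabp4 at 0.389. Fabp4 and Lpl correlated with each other at 0.98 over 6 libraries and 0.90 over 5.

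**Figure D3:**
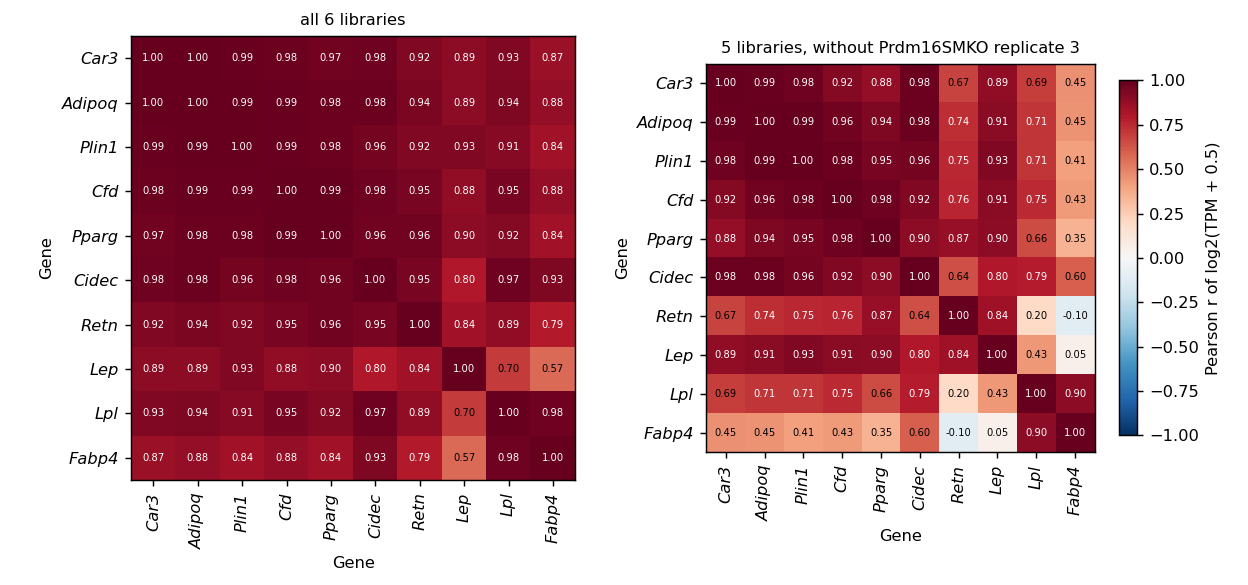
Pearson correlation of log2(TPM + 0.5) between each pair of the 10 genes, over all 6 libraries (left) and over the 5 libraries without Prdm16SMKO replicate 3 (right), with colour from −1 to 1. The block from Car3 to Cidec is dark in both panels, while Fabp4 is at −0.10 with Retn and 0.05 with Lep on the right and keeps 0.90 with Lpl.

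Relative to Adipoq, the most stable member was Car3. The ratio of Car3 to Adipoq was 6.89, 6.51 and 7.05 in the controls and 6.08, 6.84 and 6.10 in the knockouts, a range of 1.16-fold while Adipoq itself spanned 8.45-fold. Prdm16SMKO replicate 1 held the most skeletal muscle transcripts (a sum of 71.0 TPM over 8 marker genes, against 3.40 to 15.8 TPM elsewhere). Its ratio of Car3 to Adipoq, 6.08, was close to the 6.10 of Prdm16SMKO replicate 3. Myh7, the myosin of slow muscle, was at 0.09 TPM in Prdm16SMKO replicate 1 and at 0.05 to 0.18 TPM elsewhere. These 2 ratios therefore cannot show what slow muscle adds to Car3. The part of skeletal muscle in the Car3 values was not tested. Plin1 over Adipoq ranged 1.32-fold and Cidec over Adipoq 1.48-fold.

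Fabp4 and Lpl behaved otherwise. The ratio of Fabp4 to Adipoq was 12.4, 19.8 and 19.4 in the controls and 11.7, 7.62 and 10.3 in the knockouts. It was highest in the controls with the least Adipoq and lowest in Prdm16SMKO replicate 2. Lpl over Adipoq was likewise highest in control replicates 2 (2.33) and 3 (2.06) and lowest in Prdm16SMKO replicate 2 (1.14). That library had the lowest value of all 4 capillary endothelial markers, with 11.3 TPM of Rgcc against 13.2 to 57.3 TPM elsewhere, 50.7 TPM of Aqp1 against 64.8 to 121 TPM and 6.08 TPM of Gpihbp1 against 14.2 to 28.4 TPM. The general endothelial markers were mixed there: of 8, the library was highest for 4, among them Pecam1 (199.98 TPM against 68.7 to 99.6 TPM), and lowest for 1, Kdr (5.04 TPM against 6.93 to 13.9 TPM). The part of endothelial cells in Fabp4 and Lpl was not tested.

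The thermogenic fat genes separated Prdm16SMKO replicate 2 from the other libraries in a way that the white adipocyte genes did not. Ucp1, the mitochondrial uncoupling protein that makes brown fat generate heat, measured 49.0, 12.9 and 11.8 TPM in the controls, 23.4 and 169.5 TPM in Prdm16SMKO replicates 1 and 3, and was listed at 0 in Prdm16SMKO replicate 2. In the same library Adipoq was at 44.96 TPM, the third highest value. Cidea, the paralog of Cidec that marks brown fat, was at 5.09 TPM there and at 35.8 to 308 TPM elsewhere. Its ratio to Cidec was 0.154 in Prdm16SMKO replicate 2 against 1.53 to 2.35. In the other 5 libraries Ucp1 was thus present and Cidea exceeded Cidec, so thermogenic fat transcripts stood beside those of the white list. For Prdm16SMKO replicate 2 the same comparison continues below. Cox8b, a muscle and brown fat subunit of cytochrome oxidase, was at 6.14 TPM in Prdm16SMKO replicate 2 and at 21.3 to 179 TPM elsewhere. Of the 10 thermogenic genes tested, 9 were lowest in that library and all 10 were highest in Prdm16SMKO replicate 3. The margin was small in some of the 9, unlike in Ucp1, Cidea and Cox8b. Dio2 was at 6.85 TPM against 6.86 TPM in Prdm16SMKO replicate 1, and Kcnk3 at 8.29 TPM against 8.78 TPM in control replicate 3. Between genotypes 5 of the 10 genes were higher and 5 lower, with a median log2 difference of 0.04, and none was called (Ucp1, limma, Benjamini-Hochberg adjusted p = 0.977). The departure concerns 1 library, so no test between the lists was made.

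**Figure D4:**
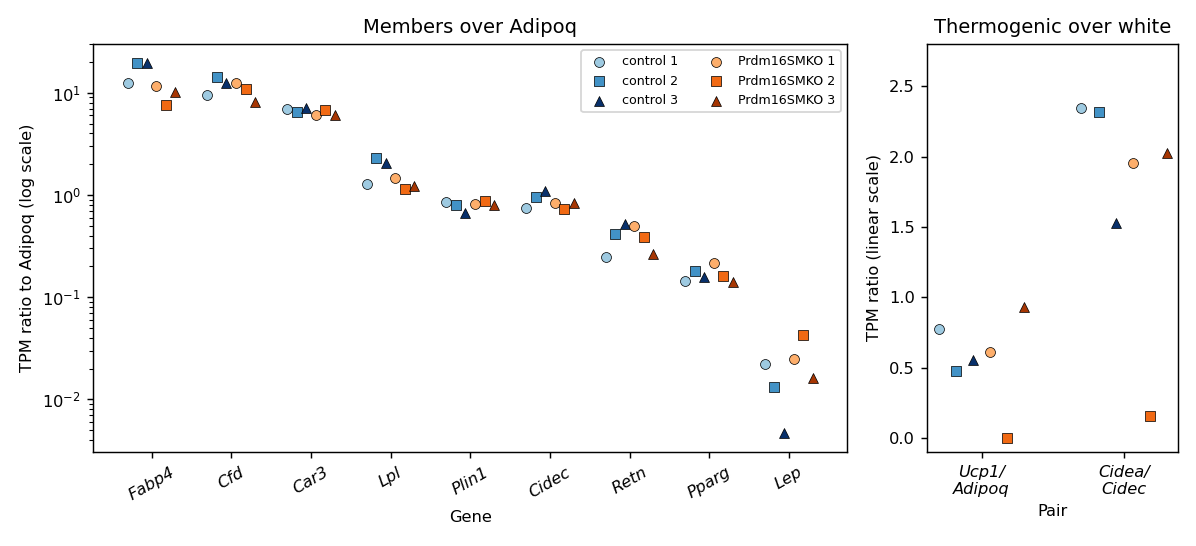
Ratio of TPM within each library, for 9 members over Adipoq (left, log axis) and for Ucp1 over Adipoq and Cidea over Cidec (right, linear axis), with controls in blue and Prdm16SMKO in orange. Car3 and Plin1 form tight groups, Fabp4 and Lpl are highest in control replicates 2 and 3, and Prdm16SMKO replicate 2 stands at 0 for Ucp1 over Adipoq and at 0.154 for Cidea over Cidec.

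Other genes of fat storage and release followed the same libraries. Of 25 such genes, all tested, 23 were higher in the knockout and 2 lower, where 54.2% of all genes tested were higher. Their median log2 difference was 0.62, and none was called. An unadjusted p under 0.05 (limma) was found in 2, against 8.74% of all genes tested. Prdm16SMKO replicate 3 was the highest library for 23 of the 25. Scd1, which makes monounsaturated fatty acids, measured 213, 58.6 and 54.1 TPM in the controls and 139, 193 and 1032 TPM in the knockouts (log2 difference 1.78 ± 0.76 SE, limma, adjusted p = 0.554). Fasn, fatty acid synthase, ran from 38.5 to 437 TPM and Pnpla2, the lipase that opens triglyceride breakdown, from 68.1 to 285 TPM, both highest in Prdm16SMKO replicate 3. Plin4, another droplet protein, did not follow: it was at 132, 149 and 96.3 TPM in the controls and at 97.0, 93.3 and 106 TPM in the knockouts, and its correlation with the mean level of the 10 genes was −0.02 over the 6 libraries. Over the 25 genes that correlation had a median of 0.94, and it was at least 0.9 in 16. Over the 5 libraries without Prdm16SMKO replicate 3 the median was 0.814 and 7 genes reached 0.9.

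Among 10 adipogenic regulators, 7 were higher and 3 lower in the knockout, with a median log2 difference of 0.16, and none was called. Cebpa, which encodes C/EBPα, followed the white adipocyte genes with a correlation of 0.999 over the 6 libraries and 0.997 without Prdm16SMKO replicate 3. It measured 29.8, 15.8 and 11.4 TPM in the controls and 21.5, 23.1 and 82.4 TPM in the knockouts. Cebpb, which acts early in adipogenesis and in many other cells, spanned 63.1 to 111 TPM. Srebf1, a regulator of lipid synthesis, ran from 23.8 to 39.6 TPM and Ebf1, a transcription factor of adipogenesis and B cells, from 26.9 to 42.1 TPM, and both were highest in control replicate 2 (correlations of 0.55 and −0.01).

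Of the receptors and partners of the adipokines, Adipor2, a receptor of adiponectin, alone followed the 10 genes at a correlation of 0.9 or above (0.977, and 0.893 without Prdm16SMKO replicate 3). Of 7 genes, 5 were higher and 2 lower, none was called, and the median correlation with the 10 genes was −0.13. Adipor1, the other adiponectin receptor, was at 41.9 to 56.4 TPM in the controls and 45.9 to 49.6 TPM in the knockouts, and Cdh13, T-cadherin, which binds adiponectin on vascular cells, at 108 to 161 and 109 to 161 TPM. Cap1, a receptor of resistin, was at 157 to 227 TPM in the controls and 144 to 183 TPM in the knockouts. C3, the complement protein whose convertase needs adipsin, measured 43.6, 27.7 and 27.0 TPM in the controls and 32.2, 102 and 84.2 TPM in the knockouts (log2 difference 1.02 ± 0.40 SE, limma, adjusted p = 0.502), and was highest in Prdm16SMKO replicate 2. Of 7 partners of lipoprotein lipase 6 were tested, 4 higher and 2 lower, with none called. Gpihbp1, which holds the lipase on capillaries, was at 14.5, 26.7 and 14.2 TPM in the controls and at 16.9, 6.08 and 28.4 TPM in the knockouts. Angptl4, an inhibitor of the lipase, was highest in Prdm16SMKO replicate 3 at 37.9 TPM, against 11.6 to 21.1 TPM. Vldlr, a receptor of triglyceride-rich lipoproteins, was at 29.9 to 46.0 TPM in the controls and 28.3 to 31.9 TPM in the knockouts, and Sel1l, needed for the lipase to leave the endoplasmic reticulum, at 24.3 to 35.3 and 28.2 to 34.5 TPM.

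**Figure D5:**
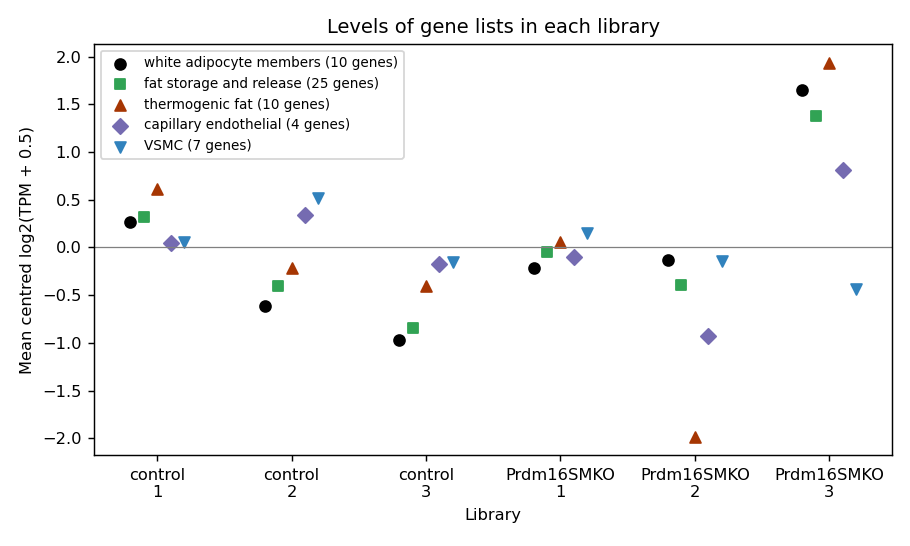
Mean over the genes tested of log2(TPM + 0.5), centred per gene over the 6 libraries, for 5 gene lists in each library. White adipocyte genes (black circles) and genes of fat storage (green squares) are highest in Prdm16SMKO replicate 3, at 1.65 and 1.37, thermogenic genes (brown triangles) are at 1.94 there and at −1.98 in Prdm16SMKO replicate 2, where the white adipocyte genes are at −0.13.

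Among the 9660 other genes whose mean reached 5 TPM, the 10 whose pattern was most like the mean of the adipocyte genes were Cebpa, Acacb, Pim1, Gstz1, Tspan12, Prkar2b, Trarg1, Slc1a3, Nudt7 and Lgals12, with Pearson correlations of 0.990 to 0.999 over the 6 libraries. Without Prdm16SMKO replicate 3 these 10 stood at 0.963 to 0.997. A correlation of at least 0.95 was reached by 76 genes, of which 21 also reached it in the 5 libraries. Prkar2b, the regulatory subunit of protein kinase A that predominates in fat, ran from 6.84 TPM in control replicate 3 to 86.2 TPM in Prdm16SMKO replicate 3, and Lgals12, a galectin of lipid droplets, from 2.24 to 16.7 TPM in the same libraries. Trarg1, which takes part in GLUT4 trafficking, ran from 3.08 to 17.4 TPM. The 5 most opposite genes, Zfp948, CAAA01066123.1, Ptpdc1, Gm12840 and Proser2, had correlations of −0.945 to −0.994 and smaller ranges, such as 5.01 to 7.75 TPM for Zfp948.

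Outside fat, the marker with the highest positive correlation with the mean level of the 10 genes was the capillary endothelial gene Rgcc. It stood at 0.872 over the 6 libraries and 0.407 without Prdm16SMKO replicate 3. The 4 capillary endothelial genes ranged from 0.057 to 0.872, and 3 of them were highest in that library. The VSMC list of 7 genes had correlations of −0.70 to −0.03 with the 10 genes (median −0.55, and −0.06 without Prdm16SMKO replicate 3), and 6 of its genes were lower in the knockout, with none called. The fibroblast list, led by Dcn and Col1a1, summed to 1319 to 1493 TPM in the controls and 1084 to 1928 TPM in the knockouts, with a median correlation of 0.05. The 8 endothelial markers summed to 278 to 347 and 306 to 517 TPM (median correlation 0.03). The most negative of them was Egfl7, at −0.91 and at −0.946 without Prdm16SMKO replicate 3, with 76.9 to 97.1 TPM. The macrophage list, led by Lyz2 and C1qa, summed to 70.2 to 109.6 TPM in the controls and 110.3 to 201 TPM in the knockouts, with the highest sum in Prdm16SMKO replicate 2. All 7 macrophage genes had positive log2 differences, where 54.2% of all genes tested did. An unadjusted p under 0.05 (limma) was found in 5, against 8.74% of all genes tested, with none called. The median correlation of the macrophage genes was 0.59, and 0.615 without Prdm16SMKO replicate 3. Skeletal muscle markers Tnnt3 and Ckm were at 24.7 and 16.6 TPM in Prdm16SMKO replicate 1 and at most 4.25 and 5.55 TPM elsewhere. Mesothelial markers, such as Krt19 and Lrrn4, summed to at most 0.64 TPM in any library and lymphocyte markers, such as Cd79a and Cd3g, to at most 3.78 TPM, with Msln listed at 0 in 5 libraries. The part of these cell types in the values of the adipocyte genes was not tested.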

How the data were processed

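Per the labels, abdominal aorta RNA of 6 samples was selected for poly A and read as 151 bp pairs, with a stated average of 40 M pairs per library. The submitters' processing notes name cutadapt 2.3, STAR 2.7.8a, RSEM 1.3.3 and GRCm38. The annotation and filters behind the table are not given in the sources used here. The authors deposited TPM values with 2 decimals, and columns were joined to samples by the names in the labels. There were 0 identical pairs of libraries. Since TPM holds no counts, no counting error was computed.

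Log2(TPM + 0.5) was fitted, for 15775 genes whose mean reached 0.5 TPM, with limma 3.58.1 in R 4.3.3 (2 groups, variance trend, two-sided, Benjamini-Hochberg over all genes, called under 0.05), and the fit was tested on simulated data. Nothing in the labels says that the libraries of a group came from separate mice, so p-values measure the spread between libraries, which may be technical. Single genes also had an exact permutation test, whose smallest p is 0.1. Correlations carry no p. Positions are from GENCODE M21, which held 55240 of 55426 identifiers and all 10 genes. Tables used pandas 2.3.3, numpy 2.4.6 and scipy 1.17.1 under Python 3.11.15, and plots used matplotlib 3.10.9.

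The 10 genes and all lists were chosen with earlier results of these data known. By rule the text names the 10 genes, the 4 most abundant genes of each pathway list, the 2 most abundant of each marker list with Ucp1 and Cidea, the 10 genes most like and 5 most unlike the 10 genes, and Prdm16. Gpihbp1 was in both a pathway and a marker list. Adipor2, Kdr, Msln, Myh7, Dio2 and Kcnk3 were named after their values were seen. The settings varied were the pseudocount (0.1 or 1), the expression minimum (absent or 2 TPM), 3 other scalings, other variance estimates, array weights, a replicate block and each library left out.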

Additional observations from a re-analysis of the deposited data

How the results depend on the processing

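The number of the 10 genes called was 0 under all 17 alternatives. The number of all genes called, 56 with 29 higher in Prdm16SMKO mice and 27 lower, was 10 with no expression minimum, 153 with median-of-ratios size factors (60 higher, 93 lower), 129 with quantile normalization (46 higher, 83 lower), 123 after rescaling without mitochondrial and 45S rRNA genes, 33 with no variance trend, 112 with robust estimation, 494 with array weights and 4 with the replicate block. With each library left out in turn it was 5 (without control replicate 2) to 61, with 17 without control replicate 1 or 3 and 28 without Prdm16SMKO replicate 2. The cause of these moves was not tested.

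The median log2 fold change of the 10 genes ran from 0.31 to 1.27 with each library left out, and from 0.10 (array weights) to 0.98 (rescaling) under the other alternatives. All 10 genes stayed higher under the 3 scalings. Signs turned for Fabp4 (−0.37), Lpl (−0.0086) and Car3 (−0.0415) with array weights, and for Fabp4 (−0.51) and Lpl (−0.18) without Prdm16SMKO replicate 3, and leaving out single libraries gave −0.51 to 0.71 for Fabp4 and −0.18 to 0.89 for Lpl, with no call among them. Lep, below a mean of 2 TPM, could not be tested at that minimum.

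The labels number the libraries 1 to 3 in each group without saying that a number marks a shared litter or day. Deviations from the group means of same-numbered libraries correlated at −0.131, −0.110 and 0.019, and no control correlated best with its own number. The paired fit with the replicate block is therefore given only here. It left the median of the 10 genes at 0.96 and called 0 of them.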

Other observations

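None of the 56 genes called between the genotypes followed the white adipocyte genes closely. Their Pearson correlations with the mean level of the 10 genes over the 6 libraries ran from −0.68 (Npas2) to 0.69 (Rbp7), and the number at 0.9 or beyond in either direction was 0. A called gene differs between the groups by much more than within them, while the mean level of the 10 genes varied widely within both groups. A correlation of 0.9 was thus hardly open to a called gene, and the count does not show that the called genes are independent of fat. Npas2 and Rbp7 were named after their values were seen.

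Of the complement genes that act with adipsin, Cfb, which encodes the factor B that adipsin cleaves, measured 11.0, 11.5 and 12.99 TPM in the controls and 16.7, 24.1 and 24.6 TPM in the knockouts. The groups did not overlap, and the log2 difference of 0.84 ± 0.19 (SE) had an adjusted p of 0.153 (limma, Benjamini-Hochberg). Cfb was named after its values were seen. Its correlation with the 10 white adipocyte genes was 0.58 over the 6 libraries and 0.15 without Prdm16SMKO replicate 3, where that of Cfd with the mean of the other 9 was 0.996 and 0.981.

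Within Prdm16SMKO replicate 2, fat genes departed from Adipoq in both directions. Gpd1 over Adipoq was 0.526 there and 1.10 to 1.57 in the other libraries, and Pck1 over Adipoq was 0.415 against 0.929 to 1.32, while Lep over Adipoq was highest in that library, at 0.0423 against 0.00465 to 0.0250. These genes were picked after their values were seen, and with 1 library the pattern has no replicate.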
